A study of Mus musculus with 4 samples.

Results

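The genes of the vascular endothelial growth factor (VEGF) family were examined in ischemic limb muscle of mice treated with E-selectin gene therapy. They are the ligands *Vegfa*, *Vegfb*, *Vegfc*, *Figf* (the older symbol of *Vegfd*) and *Pgf*, the receptor tyrosine kinases *Kdr* and *Flt1*, and the co-receptors *Nrp1* and *Nrp2*. They were chosen by gene symbol, and make up 9 of the 84 genes of the mouse angiogenesis PCR array. All 9 had a ratio in both array runs, as did 78 of the 84 genes.

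FVB mice (FVB/NJ per the methods) aged 10 to 12 weeks underwent coagulation of the left femoral artery and vein. All of them also received L-NAME, an inhibitor of nitric oxide synthase, at 40 mg/kg per injection. They were injected in the limb muscles with an adeno-associated virus carrying E-selectin (E-sel/AAV2/2) or, as control, beta-galactosidase (LacZ/AAV2/2), at a total dose of 1e11 viral genomes. Adductor and gastrocnemius muscles were taken on postoperative day (POD) 21. Per the sample records, RNA of 3 mice was pooled in each of the 2 groups, while the methods give 3 to 6 mice, and each pool was run on 2 arrays. The 2 runs of a group were therefore read as repeats of 1 pool, and their spread holds no difference between mice. The promoter that drove the transgene is not given in the sources used here. No symbol on the array stands for E-selectin, so the groups could not be checked by their transgene.

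VEGF-A drives endothelial growth, migration and permeability mainly through its receptor VEGFR-2, the product of *Kdr*. VEGFR-1, the product of *Flt1*, binds VEGF-A tightly but signals weakly, and its soluble form acts as a trap for the ligand. Placental growth factor, the product of *Pgf*, and VEGF-B bind VEGFR-1 and not VEGFR-2. VEGF-C and VEGF-D are best known as the ligands of VEGFR-3 on lymphatic endothelium, and the array carries no symbol for that receptor. Neuropilins hold the ligands beside the kinases. In ischemic muscle, low oxygen raises *Vegfa* transcription through hypoxia-inducible factors.

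In the deposited data each gene has 1 ratio per run, that of E-sel/AAV2/2 over LacZ/AAV2/2 with *Gapdh* set to 1. A ratio of 1 means the same amount relative to *Gapdh* in both pools. The ratios are also given here relative to 5 housekeeping genes (*Gapdh*, *Actb*, *Gusb*, *B2m* and *Hsp90ab1*), by subtraction of their mean log2 ratio, 0.99 in run 1 and 0.81 in run 2. The level of a gene in a pool and the threshold cycle behind its ratio are not known, and the number of arrays limits the precision.

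Relative to *Gapdh*, 8 of the 9 genes were above 1 in both runs, with *Pgf* highest. Relative to the 5 housekeeping genes, only *Pgf* was above 1 and the other 8 were below 1, each of them in both runs. *Pgf* had the highest ratio of the family in both runs and *Flt1* the lowest or joint lowest, on either scale. The background was wide. Of the 78 genes, 69.2% were above 1 in both runs relative to *Gapdh*. Relative to the 5 housekeeping genes, 69.2% were below 1 and 12.8% above 1 in both runs. On that scale the median log2 fold change of the family was -0.40, beside -0.45 over the 78 genes. Relative to *Gapdh* these medians were 0.50 and 0.45, so on either scale the middle of the family lay close to the middle of the array.

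**Figure D1:**
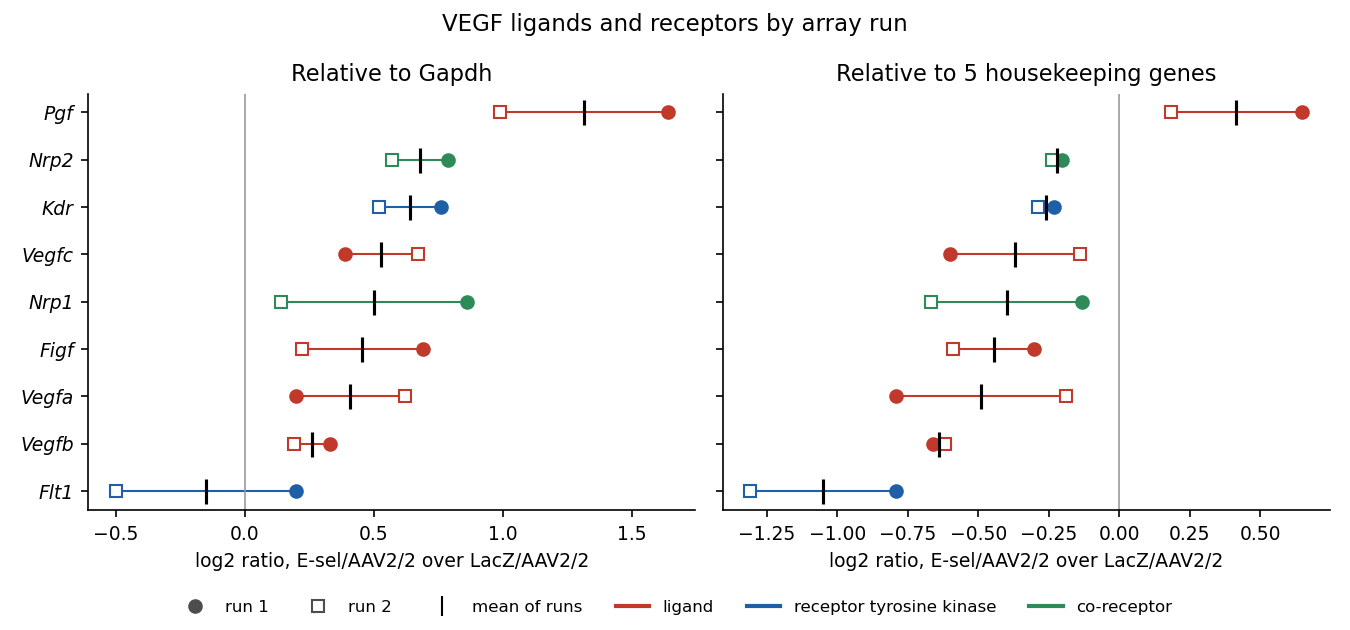
Log2 ratio of E-sel/AAV2/2 over LacZ/AAV2/2 for the 9 VEGF genes in run 1 (filled circles) and run 2 (open squares), relative to *Gapdh* (left) and to the 5 housekeeping genes (right). The black ticks are means of the 2 runs, the lines span the runs and the colours give the role of the gene. *Pgf* stands to the right of the other 8 genes in both panels. *Flt1* stands to the left by its mean and in run 2, and is level with *Vegfa* in run 1. The zero line falls left of most genes in one panel and right of most in the other.

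Among the ligands, *Pgf* had ratios relative to *Gapdh* of 3.12 in run 1 and 1.99 in run 2, a mean fold change of 2.49. It was the only one of the 9 genes more than 2-fold higher on this scale, where 17.9% of the 78 genes were. Relative to the 5 housekeeping genes its run values were 1.57 and 1.13, a fold change of 1.33, and none of the 9 genes was more than 2-fold higher, with a background of 3.85%. By its mean log2 ratio *Pgf* ranked 8 among the 78 genes, 11 in run 1 and 10 in run 2, so its place in the array was nearly the same in both runs.

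*Vegfa* had ratios of 1.15 and 1.54 relative to *Gapdh*, and of 0.578 and 0.878 relative to the 5 housekeeping genes. Its fold change was 1.33 on the first scale and 0.712 on the other. *Vegfc* had ratios of 1.31 and 1.59 relative to *Gapdh*, and of 0.659 and 0.909 relative to the 5 housekeeping genes. Both genes were higher in run 2 than in run 1 on either scale. Relative to *Gapdh* the other 7 genes of the family were lower in run 2. Run 2 was above run 1 in 2 of the 9 VEGF genes, beside 14.1% of the 78 genes relative to *Gapdh*. *Vegfa* ranked 62 in run 1 and 20 in run 2, and *Vegfc* ranked 49 and 17, so the place of these 2 ligands among the other genes was not settled by the repeat runs.

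*Vegfb* had the closest runs of the ligands, at 1.26 and 1.14 relative to *Gapdh* and 0.632 and 0.652 relative to the 5 housekeeping genes. Its fold change of 0.642 on the latter scale was the lowest among the ligands. The ratios of *Figf*, which encodes VEGF-D, were 1.61 and 1.16 relative to *Gapdh* and 0.811 and 0.665 relative to the 5 housekeeping genes. Apart from *Pgf*, the 4 ligands thus lay within a range of fold changes from 0.642 to 0.774 relative to the 5 housekeeping genes, the latter being *Vegfc*.

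The receptor tyrosine kinases differed from each other. *Kdr* had ratios of 1.69 and 1.43 relative to *Gapdh*, and of 0.851 and 0.819 relative to the 5 housekeeping genes. *Flt1* had ratios of 1.15 and 0.707 relative to *Gapdh*, and was the only VEGF gene on different sides of 1 in the 2 runs on that scale. Relative to the 5 housekeeping genes *Flt1* had values of 0.578 and 0.404, a fold change of 0.483. It was the only one of the 9 genes more than 2-fold lower there, where 11.5% of the 78 genes were. Run 1 on its own did not place it past 2-fold. The log2 ratio of *Kdr* was above that of *Flt1* by 0.56 in run 1 and 1.02 in run 2, whichever reference is used. In rank among the 78 genes *Kdr* stood at 31 and *Flt1* at 70 by the mean of the runs.

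Of the co-receptors, *Nrp2* was the steadier. Its ratios were 1.73 and 1.48 relative to *Gapdh*, and 0.869 and 0.848 relative to the 5 housekeeping genes, next to those of *Kdr*. *Nrp1* had ratios of 1.82 and 1.10 relative to *Gapdh*, and of 0.913 and 0.629 relative to the 5 housekeeping genes. *Nrp1* was the highest of the 4 receptors and co-receptors in run 1 and below *Nrp2* and *Kdr* in run 2. Its log2 ratio relative to *Gapdh* differed by -0.72 (run 2 minus run 1), the widest gap within the family.

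By mean log2 ratio the order from high to low was *Pgf*, *Nrp2*, *Kdr*, *Vegfc*, *Nrp1*, *Figf*, *Vegfa*, *Vegfb* and *Flt1*. Differences between genes of 1 run do not depend on the reference. Over the 36 pairs of the 9 genes, 22 had the same order in both runs, and in 13 the mean difference was also larger than the gap between the 2 runs. Of the 8 pairs of neighbours, 2 met this. They were *Pgf* above *Nrp2*, by 0.85 and 0.42, and *Nrp2* above *Kdr*, by 0.03 and 0.05 on the log2 scale. The lead of *Nrp2* over *Kdr* was a mean of only 1.03-fold, and passed because the gap between the runs was 0.02. From *Kdr* down to *Flt1* no gene differed from the next beyond the gap between runs. *Pgf* was above each of the other 8 genes in both runs. Its lead over *Vegfa* was 1.44 in run 1 and 0.37 in run 2, and over *Vegfc* 1.25 and 0.32. The mean leads over *Vegfa* and *Vegfc*, 0.905 and 0.785, were narrower than the gaps between runs, 1.07 and 0.93.

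Promoter sequence is shown for *Pgf* and *Flt1*, which lay at opposite ends of the order, for *Vegfa* and its receptor gene *Kdr*, and for *Figf*, which differed from the others in its motifs. All 9 genes matched RefSeq. The sequences are the 100 bases before the annotated start that lies farthest upstream in the RefSeq table of GRCm38.p6, the C57BL/6J reference and not FVB, written 5′ to 3′ on the strand of the gene. Capitals mark GC boxes (GGGCGG or, on the other strand, CCGCCC) and TATA boxes (TATAAA or TTTATA). In *Kdr* they also mark a core of the hypoxia response element, the 5 capitals nearest the left end.
*Pgf*, chr12:85177314-85177413, minus strand: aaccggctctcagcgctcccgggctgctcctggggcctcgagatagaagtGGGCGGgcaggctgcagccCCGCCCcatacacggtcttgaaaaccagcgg
*Flt1*, chr5:147726012-147726111, minus strand: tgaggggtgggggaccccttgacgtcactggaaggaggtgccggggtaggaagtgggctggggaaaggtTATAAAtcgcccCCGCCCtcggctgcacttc
*Vegfa*, chr17:46032378-46032477, minus strand: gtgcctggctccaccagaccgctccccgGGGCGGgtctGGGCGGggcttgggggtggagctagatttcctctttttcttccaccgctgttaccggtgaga
*Kdr*, chr5:75978456-75978555, minus strand: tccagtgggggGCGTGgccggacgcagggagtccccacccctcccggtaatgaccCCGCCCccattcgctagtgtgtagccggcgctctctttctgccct
*Figf*, chrX:164373422-164373521, plus strand: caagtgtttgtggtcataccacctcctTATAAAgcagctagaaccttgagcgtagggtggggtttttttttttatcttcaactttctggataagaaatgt

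Within 250 bases before the start, 8 of the 9 genes held a GC box on either strand, beside 32.7% of all 32851 promoter windows in the table, and *Figf* held none. A TATA box stood in 2 of the 9, *Flt1* and *Figf*, beside 12.4% of windows. Its first letter lay 31 bases before the start in *Flt1* and 73 in *Figf*. The core of the hypoxia response element was searched in both of its forms. ACGTG or, on the other strand, CACGT was in none of these 9 windows and in 16.6% of all windows. GCGTG or, on the other strand, CACGC was in 6 of the 9, all but *Vegfa*, *Vegfc* and *Figf*, beside 28.2% of all windows, and in *Kdr* its first letter lay 89 bases before the start. Known hypoxia elements of *Vegfa* lie farther upstream than these windows reach. *Pgf* and *Flt1*, the highest and lowest of the family, both held GC boxes. A match of letters is a description and not a bound site.

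Ligands and receptors did not separate as classes. Relative to the 5 housekeeping genes the median log2 ratio of the 5 ligands was -0.60 in run 1 and -0.19 in run 2. That of the 4 receptors and co-receptors was -0.22 and -0.48. The difference (ligands minus receptors) was therefore -0.39 in run 1 and 0.29 in run 2, and -0.12 between the medians of the 2-run means. Without *Pgf* the differences were -0.42 in run 1 and 0.09 in run 2. Against the receptor tyrosine kinases alone they were -0.09 and 0.61, and against the co-receptors alone -0.44 and 0.27. In each of these comparisons the sign differed between the runs. All 4 receptors and co-receptors were lower in run 2 than in run 1 on both scales, as were 84.6% of the 78 genes relative to *Gapdh* and 73.1% relative to the 5 housekeeping genes. Of the 5 ligands, 3 were lower in run 2 relative to *Gapdh* (*Pgf*, *Figf* and *Vegfb*), and 2 of these, *Pgf* and *Figf*, relative to the 5 housekeeping genes.

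The log2 ratios of *Vegfa*, *Vegfb*, *Vegfc* and *Pgf* were then set against those of receptors that these ligands are known to bind, within a run. The 9 pairs do not cover every known binding, and the differences are between ratios, not between levels. *Figf* was set against none. The ratio of *Pgf* exceeded that of *Flt1*, its signalling receptor, by 1.44 in run 1 and 1.49 in run 2 on the log2 scale, a mean of 2.76-fold. It exceeded that of *Nrp1* by 0.78 and 0.85, a mean of 1.76-fold. These were the pairs with the smallest gaps between runs, 0.05 and 0.07. The ratio of *Vegfb* exceeded that of *Flt1* by 0.13 and 0.69. These were the only 3 of the 9 pairs with the ligand above the receptor in both runs, and no pair had the receptor above the ligand in both. *Vegfa* was 0.56 below *Kdr* in run 1 and 0.10 above it in run 2. *Vegfc* was 0.40 below *Nrp2* in run 1 and 0.10 above it in run 2. The ratio of *Vegfa* was equal to that of *Flt1* in run 1 and above it by 1.12 in run 2.

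**Figure D2:**
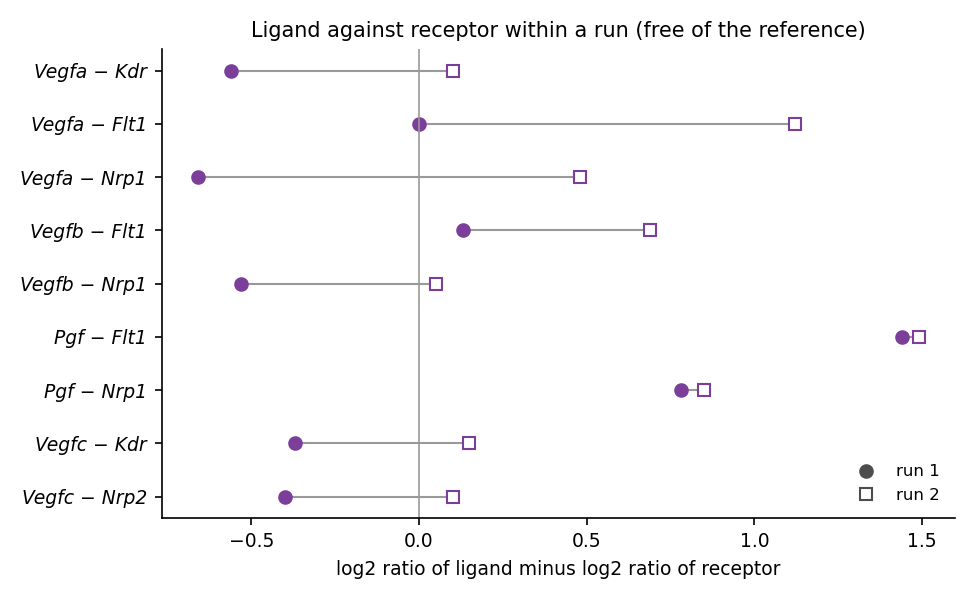
Log2 ratio of a ligand minus that of its receptor or co-receptor in run 1 (filled circles) and run 2 (open squares) for 9 binding pairs. Lines join the runs, and the reference gene cancels in each difference. The *Pgf* pairs lie to the right of 0 with both runs close together, while the *Vegfa* and *Vegfc* pairs lie at or below 0 in run 1 and above 0 in run 2.

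The 2 runs differed in their general height. Relative to *Gapdh*, run 1 was above run 2 in 66 of the 78 genes and run 2 above run 1 in 11. The median gap of the 9 VEGF genes, without sign, was 0.42 on the log2 scale, beside 0.43 over the 78 genes, and relative to the 5 housekeeping genes it was 0.46 beside 0.37. Relative to *Gapdh*, run 2 minus run 1 was -0.14 for *Vegfb*, -0.22 for *Nrp2* and -0.24 for *Kdr*, the smallest gaps of the family, and -0.70 for *Flt1*.

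**Figure D3:**
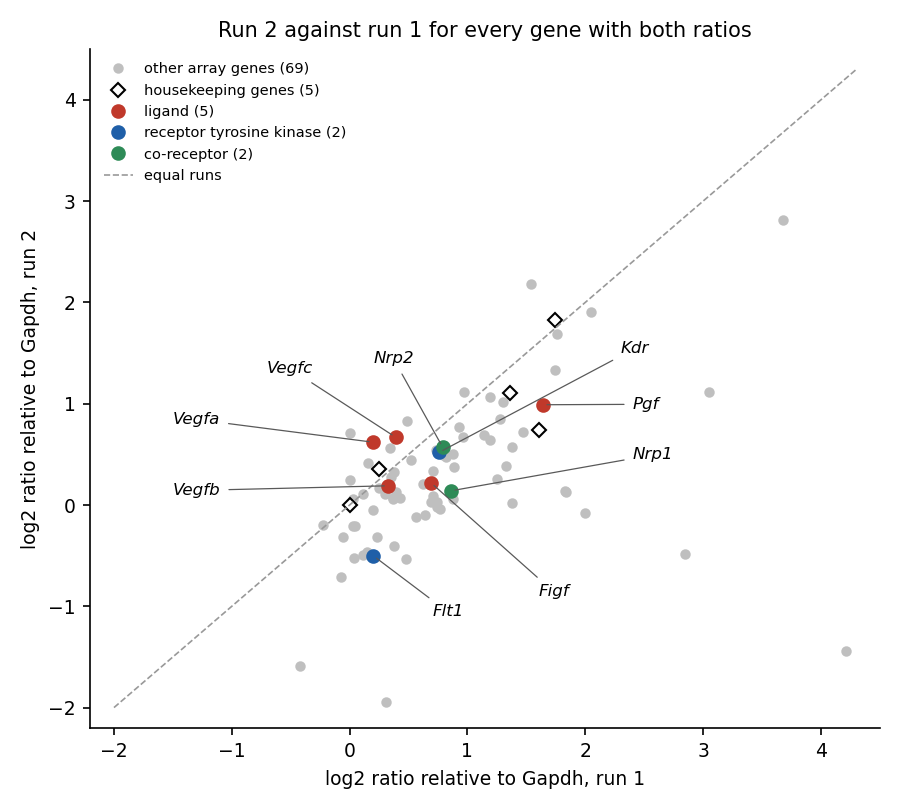
Log2 ratio relative to *Gapdh* in run 2 against run 1 for the 9 VEGF genes, the other 69 array genes with both ratios and the 5 housekeeping genes; the dashed line marks equal runs. *Vegfa* and *Vegfc* are above the line, the other 7 VEGF genes are below it, and all 9 lie within the cloud of grey points.

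The direction of most VEGF genes depended on the reference. The housekeeping genes themselves did not share a ratio. Relative to *Gapdh*, the mean fold change was 1.24 for *Hsp90ab1*, 2.26 for *Gusb*, 2.35 for *Actb* and 3.45 for *B2m*. The 9 references tried were these 5 genes together, each of them alone, the median of the array genes, 3 wells that control reverse transcription and 3 that control the PCR. *Pgf* was above 1 under 8 of them, all but *B2m* alone, with fold changes from 0.722 to 2.49. *Flt1* was below 1 under all 9, from 0.262 to 0.901. *Kdr*, *Nrp1*, *Nrp2*, *Vegfc* and *Figf* were above 1 under 5 references, *Vegfa* under 4 and *Vegfb* under 3. With each run centred on the median of the array genes, 6 of the 9 were above 1, beside 39 of the 78 genes, a split that this centring sets, and *Pgf* stood at 1.82 and *Flt1* at 0.660. On that scale *Vegfa* had a fold change of 0.973, *Figf* of 1.00 and *Nrp1* of 1.04.

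**Figure D4:**
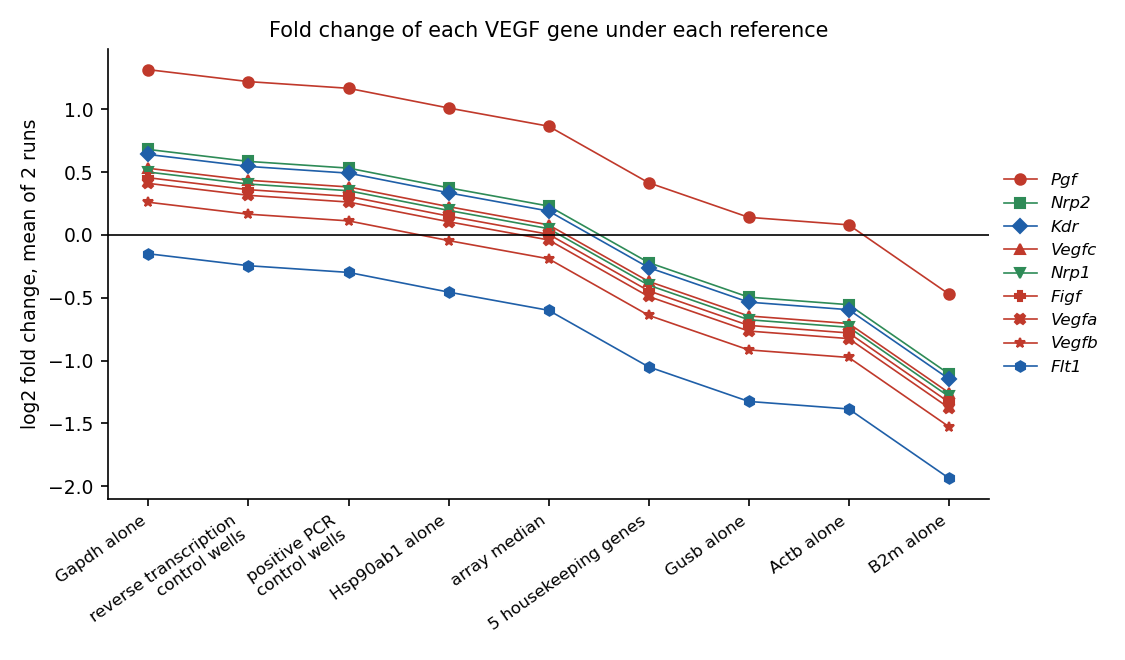
Log2 fold change (mean of the 2 runs) of the 9 VEGF genes under each of 9 references, ordered from *Gapdh* alone to *B2m* alone; each line is a gene, coloured red for ligands, blue for receptor tyrosine kinases and green for co-receptors. The lines are parallel since a reference shifts every gene by the same amount, *Pgf* crosses 0 only at *B2m*, *Flt1* is below 0 throughout, and the other 7 genes cross 0 on the way.

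The limma test used both log2 ratios of every gene (78 genes) with Benjamini-Hochberg adjustment, and compares 2 pools over repeat arrays, not treatments over mice. Relative to the 5 housekeeping genes it called 0% of the 78 genes at an adjusted p under 0.05 (at an unadjusted p under 0.05, 5 were higher and 27 lower), and so none of the VEGF genes. Of these, *Flt1* had a log2 fold change of -1.05 ± 0.22 (SE, 2 runs; limma adjusted p = 0.0724), and *Vegfb* one of -0.64 ± 0.17 (limma adjusted p = 0.0918). These 2 were the only VEGF genes with an unadjusted p under 0.05. For *Pgf* the log2 fold change was 0.42 ± 0.21 (limma adjusted p = 0.228), for *Vegfa* -0.49 ± 0.24 (limma adjusted p = 0.208) and for *Kdr* -0.26 ± 0.17 (limma adjusted p = 0.314). Relative to *Gapdh*, limma called 5.13% of the 78 genes, all higher and none of them a VEGF gene. *Pgf* came nearest, with a log2 fold change of 1.32 ± 0.32 (limma adjusted p = 0.0921). With *B2m* as reference 6 of the 9 VEGF genes were called lower by limma, where 57.7% of the 78 genes were. With *Actb* it was 2 of the 9, beside 33.3%, and with *Gusb* 1 of the 9, beside 14.1%. None was called under the other 6 references. *Flt1* was called lower under 3 references, and no VEGF gene was called higher under any of the 9.

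Array genes whose ratios in the 2 runs lay nearest to those of each member were found by Euclidean distance over the 2 log2 ratios. Nearest to *Pgf* were *Ccl2*, a monocyte chemokine, at a distance of 0.32, and *Itgb3*, the integrin beta-3 chain, at 0.34. These were the largest nearest distances of the family. The housekeeping genes were not part of the search. *Gusb*, with log2 ratios of 1.61 and 0.74, and *Actb*, with 1.36 and 1.11, lay nearer to *Pgf* than *Ccl2* did. Those of *Pgf* were 1.64 and 0.99. *Kdr* lay 0.04 from *Tgfbr1*, a transforming growth factor beta receptor, and *Nrp2* lay 0.06 from *Kdr*. *Flt1* lay 0.06 from *Mdk*, which encodes the growth factor midkine, and 0.09 from *Tnfsf12*. *Thbs2*, which encodes the angiogenesis inhibitor thrombospondin-2, was the nearest gene to both *Vegfa* (0.15) and *Vegfc* (0.12). *Nrp1* was nearest to *Plau*, *Vegfb* to *Tgfb2* and *Figf* to *Ephb4*, at distances of 0.08, 0.08 and 0.07. With 2 values per gene these distances describe closeness only.

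The other genes of the pathway on the array were compared by list. Of 5 genes of VEGF signalling, *Akt1*, *Mapk14*, *Ptk2*, *Nos3* and *Sphk1*, limma called none in either direction on either scale. Of the 78 genes it called 5.13% with *Gapdh* as reference and 0% with the 5 housekeeping genes. The median log2 fold change of these 5 signalling genes was -0.52 with the 5 housekeeping genes, beside -0.45 over the 78 genes. With *Gapdh* it was 0.385, beside 0.45. By the mean of the runs all 5 were above 1 with *Gapdh*, as were 64 of the 78 genes. *Ptk2*, which encodes focal adhesion kinase, had ratios of 1.27 and 1.21 relative to *Gapdh*. The ratios of *Nos3*, the endothelial nitric oxide synthase that L-NAME inhibits, were 2.38 and 1.20. *Sphk1*, a sphingosine kinase, had 7.21 in run 1 and 0.717 in run 2, so its runs lay on opposite sides of 1. Of the hypoxia-inducible factors, *Hif1a* had ratios of 2.43 and 1.80 relative to *Gapdh*, above those of *Vegfa* in both runs. *Epas1* had ratios of 1.64 and 1.06, close to those of *Nrp1*.

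*Kdr*, *Flt1* and the neuropilins are expressed by endothelium, but not all of them only there. In whole muscle, fewer cells of a type and less RNA per cell cannot be told apart. All 7 endothelial markers on the list (*Pecam1*, *Cdh5*, *Tek*, *Tie1*, *Nos3*, *Eng* and *S1pr1*) had both ratios. Their median log2 ratio relative to the 5 housekeeping genes was 0.15 in run 1 and -0.55 in run 2, beside -0.22 and -0.48 for the 4 receptors and co-receptors. By the mean of the runs, 2 of the 7 were above 1, beside 25.6% of the 78 genes, and 5 below, from *Eng* at 0.519 to *S1pr1* at 1.55. On this scale limma called none of the 7, and 0% of the 78 genes. *Pecam1*, a surface protein of all endothelium, stood at 1.01, *Cdh5*, the junctional VE-cadherin, at 0.527 and *Tek*, the angiopoietin receptor, at 0.847. *Kdr* at 0.835 lay within this range and *Flt1* at 0.483 below it, but in run 2 alone *Flt1*, at 0.404, lay above *Cdh5*, at 0.396. Relative to *Gapdh*, 5 of the 7 markers were above 1 in both runs, beside 69.2% of the 78 genes. Their median log2 fold change there was 0.70, beside 0.45 over the 78 genes. The part of endothelial content in the values of the receptors was not tested.

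Markers of other cells also had ratios away from 1. *Lep*, made by adipocytes, had ratios of 12.8 and 7.01 relative to *Gapdh*, the highest mean of the 78 genes, and was 5.08-fold higher relative to the 5 housekeeping genes. It was called by limma relative to *Gapdh* (adjusted p = 0.0166) but not relative to the 5 housekeeping genes (limma adjusted p = 0.0724). Of the inflammatory genes *Tnf*, *Il1b*, *Il6* and *Ccl2*, 3 of 4 were above 1 relative to the 5 housekeeping genes, beside 25.6% of the 78 genes, and 2 of them, *Il6* and *Tnf*, in both runs, beside 12.8%. On that scale *Tnf* had values of 2.08 and 2.15, *Il6* of 4.16 and 1.24, and *Ccl2* of 1.39 and 0.941. *Il1b*, below 1 in both runs, had 0.503 and 0.934. Of the 4, limma called only *Tnf*, relative to *Gapdh* (adjusted p = 0.0362), where 5.13% of the 78 genes were called. Relative to the 5 housekeeping genes it called 0% of the 78 genes. Other chemokine genes of the array were not among these 4. Relative to the 5 housekeeping genes *Cxcl2*, ranked 78 of the 78 genes, had values of 0.376 and 0.190. *Ccl11* had 0.619 and 0.616, and *Cxcl1* had 1.80 and 0.625. *Cxcl5* had a value in run 1 only, 1.04. The 5 stromal and matrix genes *Fn1*, *Mmp2*, *Timp2*, *Serpinf1* and *Thbs2* were all below 1 in both runs relative to the 5 housekeeping genes, where 69.2% of the 78 genes were, with a median log2 fold change of -0.65 beside -0.45 over the 78 genes. Relative to *Gapdh* 3 of these 5 were above 1 in both runs, beside 69.2% of the 78 genes, and none below 1 in both. Matrix-related genes outside this list differed among themselves relative to the 5 housekeeping genes. *Timp1* had 9.30 and 0.211 and *Ctgf* 1.31 and 0.848, while *Mmp14* had 0.517 and 0.398 and *Col18a1* 0.741 and 0.526. *Fgf6*, a growth factor largely restricted to skeletal muscle, stood at 0.862 with *Gapdh* as reference and at 0.462 with the 5 housekeeping genes. The array holds no gene of the contractile apparatus, so the labelled muscle could not be checked by its defining markers. The part of fat, inflammatory or stromal cells in the values of the VEGF genes was not tested.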

How the data were processed

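Total RNA was reverse transcribed and measured by SYBR Green PCR on a Qiagen RT2 Profiler mouse angiogenesis array of 96 wells. The authors deposited 1 ratio (fold change, 2 to the power of minus ΔΔCt) per gene and run, of E-sel/AAV2/2 over the LacZ/AAV2/2 array of the same run number. The deposited ratio of *Gapdh* is 1 in both runs, so the values are relative to *Gapdh*. These are the authors' own per-run comparisons, and no level of a single sample is given by gene name. The authors also deposited threshold cycles by well, which were not used. Across wells their correlation with the log2 ratios lay between -0.12 and 0.12 over 12 ordered pairs of arrays, and at most 2 wells were equal within 0.015 cycles, so no gene name was placed on them.

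Log2 ratios were used as deposited and after subtraction of the mean of the 5 housekeeping genes in each run, which the methods name for the limma analysis. Fold changes are geometric means of the 2 runs. The design in ΔCt of the methods could not be run on ratios, so limma (lmFit and eBayes, version 3.58.1 in R 4.3.3, two-sided, Benjamini-Hochberg over 78 genes) was fitted to the 2 log2 ratios of each gene against 0. The fit was also run on simulated data, the outcome of which is not reported here. Tables were made with Python 3.11.15, numpy 2.4.6 and pandas 2.3.3. Named genes are the 9 VEGF genes, the housekeeping genes, the listed genes and the 2 array genes nearest to each VEGF gene. The members, lists and tests were chosen with earlier results of these data known. Alternatives were other references, 1 run alone, the arithmetic mean of the run ratios, another fold threshold and other gene sets for limma.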

Additional observations from a re-analysis of the deposited data

How the results depend on the processing

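The reference changed more values than any other choice, relative to the 5 housekeeping genes as the setting of the report. The number of VEGF genes above 1 was 1 there (20 of the 78 genes), 8 with *Gapdh* (64 of 78) and with either kind of control well (62 and 60), 7 with *Hsp90ab1* (50), 6 with the array median (39) and 0 with *B2m* (4). Their median log2 fold change was 0.50 with *Gapdh*, -0.74 with *Actb*, -1.29 with *B2m*, -0.68 with *Gusb*, 0.20 with *Hsp90ab1*, 0.05 with the array median, 0.41 with the reverse transcription wells, 0.35 with the positive PCR wells and -0.38 with the mean of the run ratios. With 1 run left out it lay between -0.30 and -0.29. The number past 2-fold was 1 (*Flt1*, lower, also with *Actb* and *Gusb*, but *Pgf*, higher, with *Gapdh*, *Hsp90ab1* and either kind of control well), and it was 8 with *B2m*, where 55 of the 78 genes were lower and 1 higher, 0 with the array median, where 2 were lower and 6 higher, 2 past 1.5-fold, and from 0 to 1 with a run left out. It was 0 without run 2, the loss being *Flt1*. The genes called by limma numbered 0, but 4 with *Gapdh*, 28 with *Actb*, 46 with *B2m*, 12 with *Gusb*, 1 with *Hsp90ab1*, 7 with the array median, 1 with the reverse transcription wells and 2 with the positive PCR wells. The difference between ligand and receptor medians was from -0.39 to 0.29 with 1 run left out and does not depend on the reference.

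Of 117 values of single VEGF genes under an alternative, 33 had the opposite sign. With *Gapdh* these were *Vegfa* 0.41, *Vegfb* 0.26, *Vegfc* 0.53, *Figf* 0.46, *Kdr* 0.64, *Nrp1* 0.50 and *Nrp2* 0.68. With *Hsp90ab1* they were *Vegfa* 0.11, *Vegfc* 0.23, *Figf* 0.15, *Kdr* 0.34, *Nrp1* 0.20 and *Nrp2* 0.38. With the array median they were *Vegfc* 0.08, *Figf* 0.005, *Kdr* 0.19, *Nrp1* 0.05 and *Nrp2* 0.23. With the reverse transcription wells they were *Vegfa* 0.32, *Vegfb* 0.17, *Vegfc* 0.44, *Figf* 0.36, *Kdr* 0.55, *Nrp1* 0.41 and *Nrp2* 0.59. With the positive PCR wells they were *Vegfa* 0.26, *Vegfb* 0.11, *Vegfc* 0.38, *Figf* 0.31, *Kdr* 0.49, *Nrp1* 0.35 and *Nrp2* 0.53. With *B2m*, *Pgf* was -0.47. The shift of the reference itself gives these changes, since it moves all genes alike. Which reference is the right one was not tested. No paired analysis was possible beyond the deposited ratios because these already pair the arrays by run number.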
